A study of Mus musculus with 12 samples.

Results

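The Toll-like receptors (TLR) Tlr1, Tlr2, Tlr3, Tlr4, Tlr5, Tlr6, Tlr7, Tlr8 and Tlr9 and their shared adaptor Myd88 were followed in sorted mouse thymic epithelial cells (TEC). These 10 genes were taken by symbol, and all 10 were found among 34547 annotated genes with an estimated count and among 34677 genes with an rlog value, which is a log2 count that DESeq2 has shrunk for low counts. Bulk RNA-Seq was available for 12 libraries in 4 groups of 3: cortical TEC (cTEC, Epcam+CD45-Ly51+UEA1-) and medullary TEC (mTEC, Epcam+CD45-Ly51-UEA1+), each from wild-type (WT) and Aβ0/0 mice. WT mice were bought C57BL/6 animals, whereas Aβ0/0 mice carry a disrupted beta chain gene H2-Ab1 in every cell and therefore have no surface MHC class II and make few CD4+ T cells. Each library came from a pool of 5 to 10 mice aged 4 to 6 weeks and was made with a SMART-Seq v4 kit for low RNA input, and the WT animals were not stated to be littermates of the Aβ0/0 animals.

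TLRs are membrane receptors that recognise conserved microbial molecules. At the cell surface, TLR2 pairs with TLR1 or TLR6 to bind bacterial lipopeptides, TLR4 senses lipopolysaccharide together with CD14 and MD-2 (Ly96), and TLR5 senses flagellin. TLR3, TLR7, TLR8 and TLR9 sit in endosomes and sense nucleic acids, and the endosomal receptors need the chaperone UNC93B1 to reach that compartment. All of them except TLR3 signal through MYD88, which recruits IRAK kinases and TRAF6 and ends in NF-κB and IRF transcription factors, whereas TLR3 uses the adaptor TICAM1 (TRIF). In the thymus, TLR and MYD88 signalling in mTEC is known for its link to chemokine release and to the recruitment of myeloid cells into the medulla.

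Tlr1 and Tlr6 lie next to each other on the minus strand of chromosome 5 (GRCm38, chr5:64924679-64933563 and chr5:64952031-64960097), and their sequences are shown because part of them cannot be told apart by short reads. Tlr1-201 and Tlr6-201 contained an identical run of 229 bases, inside coding exon 3 of Tlr1 (chr5:64925537-64925765) and coding exon 2 of Tlr6 (chr5:64953828-64954056). The shared run is in capitals below, with 15 bases of each gene on either side in lower case.
Tlr1-201: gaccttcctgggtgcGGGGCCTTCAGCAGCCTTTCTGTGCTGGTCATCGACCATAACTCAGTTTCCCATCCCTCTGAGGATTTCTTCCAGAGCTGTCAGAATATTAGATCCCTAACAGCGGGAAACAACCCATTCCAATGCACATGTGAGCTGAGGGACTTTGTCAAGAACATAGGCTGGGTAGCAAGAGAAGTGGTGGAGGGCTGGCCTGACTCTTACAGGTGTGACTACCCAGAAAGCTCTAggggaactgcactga
Tlr6-201: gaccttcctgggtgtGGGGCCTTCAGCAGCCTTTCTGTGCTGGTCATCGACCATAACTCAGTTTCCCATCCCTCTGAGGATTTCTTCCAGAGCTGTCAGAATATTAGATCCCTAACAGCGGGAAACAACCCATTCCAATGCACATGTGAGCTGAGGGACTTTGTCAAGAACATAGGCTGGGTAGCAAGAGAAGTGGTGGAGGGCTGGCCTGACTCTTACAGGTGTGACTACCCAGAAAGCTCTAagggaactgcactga
Of all 31-base words in the transcripts of Tlr1, 607 of 3322 (18.3%) also occurred in Tlr6, and these were 16.4% of the 3709 words of Tlr6. The division of such reads between both genes was an estimate, so the counts of Tlr1 and Tlr6 are uncertain to that extent. No 31-base word of the other 8 members occurred in another member.

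The stretch of 250 bases before the transcription start was available from RefSeq (GRCm38.p6) for 8 of the 10 members, and Tlr4 and Tlr7 had no entry. The interferon response motif GAAANNGAAA, searched on both strands, occurred in the windows of Myd88 and of 1 of the 2 starts of Tlr6, and in 2.98% of 32851 windows of all genes. The NF-κB motif GGGNNTTTCC occurred in the window of Tlr3 and in 1.41% of all windows. The windows of Myd88 (chr9:119340019-119340268, minus strand), Tlr6 (chr5:64959167-64959416, minus strand) and Tlr1 (chr5:64932700-64932949, minus strand) are printed in the direction of transcription with matches to GAAANNGAAA or its reverse in capitals, since Myd88 had the highest level of the family and Tlr6 and Tlr1 were the members with the largest differences between mTEC and cTEC of WT mice in the upward direction.
Myd88: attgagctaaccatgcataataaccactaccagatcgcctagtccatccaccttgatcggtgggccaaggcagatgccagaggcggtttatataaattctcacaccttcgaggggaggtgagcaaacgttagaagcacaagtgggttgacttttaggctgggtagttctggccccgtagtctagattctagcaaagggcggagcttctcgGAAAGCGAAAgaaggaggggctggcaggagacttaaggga
Tlr6: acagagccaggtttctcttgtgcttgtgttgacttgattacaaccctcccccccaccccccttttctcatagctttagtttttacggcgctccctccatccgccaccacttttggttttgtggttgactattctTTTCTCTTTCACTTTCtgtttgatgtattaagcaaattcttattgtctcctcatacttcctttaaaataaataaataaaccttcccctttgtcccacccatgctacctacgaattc
Tlr1: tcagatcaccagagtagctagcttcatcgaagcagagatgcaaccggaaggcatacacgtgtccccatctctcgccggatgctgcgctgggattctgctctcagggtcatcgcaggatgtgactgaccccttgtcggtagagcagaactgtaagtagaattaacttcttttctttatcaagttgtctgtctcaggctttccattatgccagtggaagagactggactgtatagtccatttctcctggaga
The match of Myd88 lay 40 bases before the start. The capitals of Tlr6 cover 2 overlapping matches on the reverse strand, and neither of the 2 Tlr1 starts had a match to either motif.

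The libraries held 21710319 to 36139815 estimated counts. H2-Ab1, which the Aβ allele disrupts, was measured at 8836 to 11066 CPM (counts relative to the library total, scaled by TMM over the 12 libraries) in WT mTEC and at 1952 to 3767 CPM in Aβ0/0 mTEC, and at 6626 to 9626 CPM in WT cTEC and 2219 to 3655 CPM in Aβ0/0 cTEC. The genotypes did not overlap in either subset, but H2-Ab1 counts remained in every Aβ0/0 library, and the sum per gene does not say which part of the transcript they cover. By the quasi-likelihood test of edgeR, the log2 fold change of WT over Aβ0/0 was 1.81 ± 0.27 (SE) in mTEC (adjusted p = 0.0352) and 1.47 ± 0.34 in cTEC (adjusted p = 0.695). The sorted subsets carried their labels' markers: all 8 cTEC markers were lower in WT mTEC than in WT cTEC without overlap, and all 8 mTEC markers were higher. Of 19461 genes tested over the 12 libraries, 0.591% to 1.08% had no count in a WT mTEC library, against 8.53% to 17.5% in a library of any other group. Genes seen in WT mTEC alone entered this set through WT mTEC. Among 16792 genes chosen on the other 9 libraries, the shares were 0.518% to 0.792% in WT mTEC and 1.98% to 8.58% elsewhere, and among all 34547 genes they were 29.3% to 32.8% and 40.9% to 48.7%. The part of this in the results on scarce members was not tested. The study also sorted fewer Aβ0/0 mTEC than WT mTEC per library, and fewer WT cTEC than WT mTEC, in both cases without overlap. The part of cell number in the results was not tested.

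Per transcript length, Myd88 was the most abundant member and Tlr3 the most abundant receptor in every group by mean. In TPM, a relative abundance corrected for transcript length, Myd88 had 32.1 ± 17.3 (SD, n = 3) in WT cTEC, 29.4 ± 9.19 in Aβ0/0 cTEC, 22.9 ± 3.01 in WT mTEC and 28.1 ± 8.33 in Aβ0/0 mTEC. Tlr3 followed with 13.9 ± 4.84, 15.5 ± 9.67, 9.19 ± 4.22 and 15.1 ± 7.99 TPM in the same order of groups. Myd88 was above Tlr3 without overlap of the 3 libraries in WT mTEC alone, and in the other 3 groups their ranges overlapped.

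In WT cTEC, Tlr2 (5.68 ± 3.06 TPM), Tlr5 (5.00 ± 2.06 TPM) and Tlr4 (4.71 ± 3.13 TPM) overlapped with each other and lay below Tlr3 and above Tlr1 without overlap. In Aβ0/0 cTEC, Tlr2 reached 13.6 ± 4.90 TPM, overlapped with Tlr3 and lay above Tlr4 (4.60 ± 2.25 TPM). In WT mTEC, Tlr2 (4.36 ± 0.725 TPM), Tlr4 (3.99 ± 0.248 TPM) and Tlr1 (3.95 ± 0.811 TPM) could not be ordered, and Tlr5 (0.733 ± 0.60 TPM) and Tlr6 (0.472 ± 0.0712 TPM) came after them. In Aβ0/0 mTEC every pair of neighbours in the order overlapped, down from Myd88 to Tlr6. Tlr7, Tlr8 and Tlr9 were at the bottom in WT mTEC, with mean levels of 0.148, 0.194 and 0.193 TPM that did not differ beyond their spread.

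**Figure D1:**
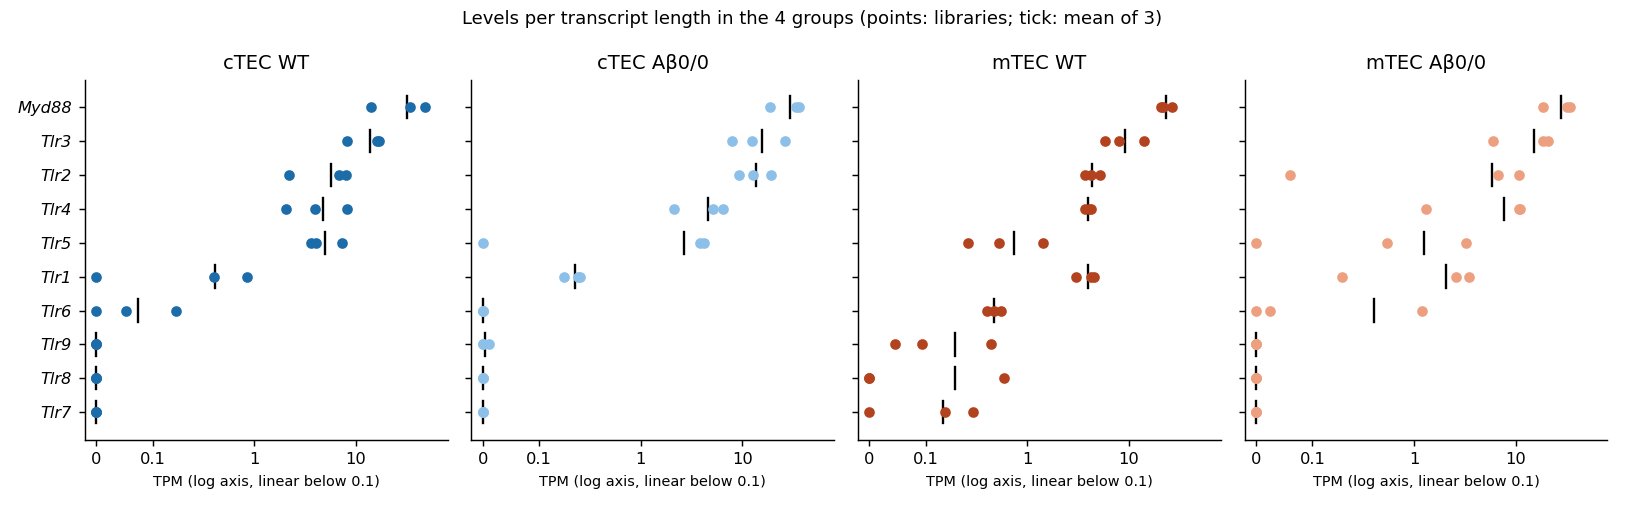
TPM of the 10 genes (vertical axis) on a log axis that is linear below 0.1 TPM, in 1 panel per group, with 1 point per library and a tick at the mean of 3. Myd88 and Tlr3 head every panel, and Tlr1 is near 4 TPM in WT mTEC but below 1 TPM in every cTEC library.

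Myd88, the adaptor, had 25.0 to 61.6 CPM over the 12 libraries. Its CPM were 43.3, 61.6 and 25.0 in WT cTEC replicates 1, 2 and 3, and 43.3, 29.7 and 45.7 in Aβ0/0 cTEC. In mTEC they were 34.4, 33 and 33.4 in WT and 46.6, 34.1 and 50.5 in Aβ0/0. The 3 WT mTEC libraries were within a factor of 1.04 of each other, and all 4 groups overlapped. The transcript Myd88-201 took 96.6% of the counts of the gene and led in 12 of 12 libraries. No comparison was called for Myd88 by edgeR: the log2 fold change of WT over Aβ0/0 was -0.37 ± 0.24 in mTEC (95% interval -0.85 to 0.10, adjusted p = 0.575) and 0.15 ± 0.38 in cTEC (-0.58 to 0.89, adjusted p = 1).

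Tlr3, the receptor for double-stranded RNA, was present in all libraries with 229 to 1408 counts. In WT cTEC its CPM were 17.4, 28.6 and 26.8, and in Aβ0/0 cTEC 9.29, 9.20 and 39.5. WT mTEC had 11.1, 10.7 and 20.8 CPM and Aβ0/0 mTEC had 23.2, 39.4 and 8.67 CPM. All groups overlapped, and in both subsets the lowest and the highest library were Aβ0/0 ones. The leading isoform changed from library to library: Tlr3-201 led in 7 of 12, and 4 different transcripts led in at least 1. In Aβ0/0 mTEC replicate 3, Tlr3-206 took 95.2% of the counts while Tlr3-201 was estimated at 0.

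Tlr2, the partner of TLR1 and TLR6, was the only tested member whose genotypes did not overlap in cTEC. WT cTEC had 13.3, 16.0 and 6.20 CPM and Aβ0/0 cTEC 24, 23 and 40.6 CPM, and the 3 Aβ0/0 libraries were all above the 3 WT libraries. The log2 fold change of WT over Aβ0/0 was -1.28 ± 0.48 with an unadjusted p of 0.0259, and edgeR gave an adjusted p = 1 over 15432 genes. Non-overlap in that direction was found in 3.58% of the genes tested. Tlr2 in WT mTEC was tight at 10.5, 10.5 and 8.86 CPM, whereas Aβ0/0 mTEC ranged over 14.2, 30.7 and 0.151 CPM. In Aβ0/0 mTEC replicate 3, Tlr2 had 4 counts, against 359 and 882 in the other replicates of the group.

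Tlr1 was seen almost only in mTEC. Its counts were 3, 0 and 6 in WT cTEC and 1, 1 and 2 in Aβ0/0 cTEC, against 126, 150 and 169 in WT mTEC (5.26, 4.48 and 5.26 CPM). The 3 libraries of Aβ0/0 mTEC disagreed, with 137, 2 and 17 counts. Replicate 1 of Aβ0/0 mTEC was therefore at the WT level and replicate 2 at the level of cTEC. The same was seen for the isoforms: both protein-coding transcripts, Tlr1-201 and Tlr1-202, together had 124.2, 128 and 150.2 estimated counts in WT mTEC and 132.7, 0 and 0 in Aβ0/0 mTEC. In cTEC their sum was 1 count in 1 of 6 libraries. The remaining counts fell on Tlr1-203, a processed transcript of 419 bases, which held all 17.5 estimated counts of Aβ0/0 mTEC replicate 3. A count of 0 in a library allows up to 3 counts, which was 0.0841 to 0.126 CPM in these libraries and covers counting error only.

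Tlr6, the other partner of TLR2, followed the same groups at a lower level. It had 10, 4 and 0 counts in WT cTEC and none in the 3 Aβ0/0 cTEC libraries. In mTEC, it had 23, 41 and 44 counts in WT and 47, 0 and 2 in Aβ0/0. As for Tlr1, all 3 WT mTEC libraries were above every cTEC library. Of the Aβ0/0 mTEC libraries, replicate 1 alone was above every cTEC library for Tlr6, whereas replicates 1 and 3 were for Tlr1. Tlr6-201, which carries the run shared with Tlr1, took 97.5% of the counts.

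Tlr4, the receptor for lipopolysaccharide, had 19.7, 10.6 and 7.35 CPM in WT cTEC and 16.7, 13.5 and 6.11 CPM in Aβ0/0 cTEC. In mTEC it had 10.4, 7.64 and 6.84 CPM in WT and 25.3, 26.6 and 4.50 CPM in Aβ0/0. Of the Aβ0/0 mTEC libraries, 2 were above all WT mTEC libraries and replicate 3 was below them. Tlr4-201 led in 12 of 12 libraries.

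Tlr5, the receptor for flagellin, was the only member with every WT cTEC library above every WT mTEC library. It had 7.0, 14.6 and 4.86 CPM in WT cTEC, 5.34, 0 and 9.08 CPM in Aβ0/0 cTEC, 2.25, 0.687 and 0.715 CPM in WT mTEC and 3.48, 0.418 and 0 CPM in Aβ0/0 mTEC. The WT subsets did not overlap, and in each Aβ0/0 subset 1 library had no count. The zero of Aβ0/0 cTEC replicate 2 stood beside 153 and 324 counts in the other libraries of that group.

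Tlr7, Tlr8 and Tlr9, the endosomal receptors for single-stranded RNA and unmethylated DNA, were scarce. Tlr7 had 25 and 15 counts in WT mTEC replicates 2 and 3 and none in the other 10 libraries. Tlr8 had 21 counts in WT mTEC replicate 1 and none in the other 11. Tlr9 had 25, 9 and 4 counts in WT mTEC, 1 count in a single Aβ0/0 cTEC library and none elsewhere. Relative to the level of 3 counts, the WT mTEC mean was at least 4.27-fold higher than Aβ0/0 mTEC and at least 4.30-fold higher than WT cTEC for Tlr9. These bounds rested on WT mTEC replicate 1 and were 1.75-fold and 1.76-fold without it. For Tlr7, the same bounds were 3.6-fold and 3.63-fold, with 1 of 3 WT mTEC libraries at 0, and 2.08-fold and 2.09-fold without replicate 2. These 3 genes did not pass the filter on low counts and were not tested by edgeR, and a count of 0 in the other groups allows up to 3 counts per library.

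**Figure D2:**
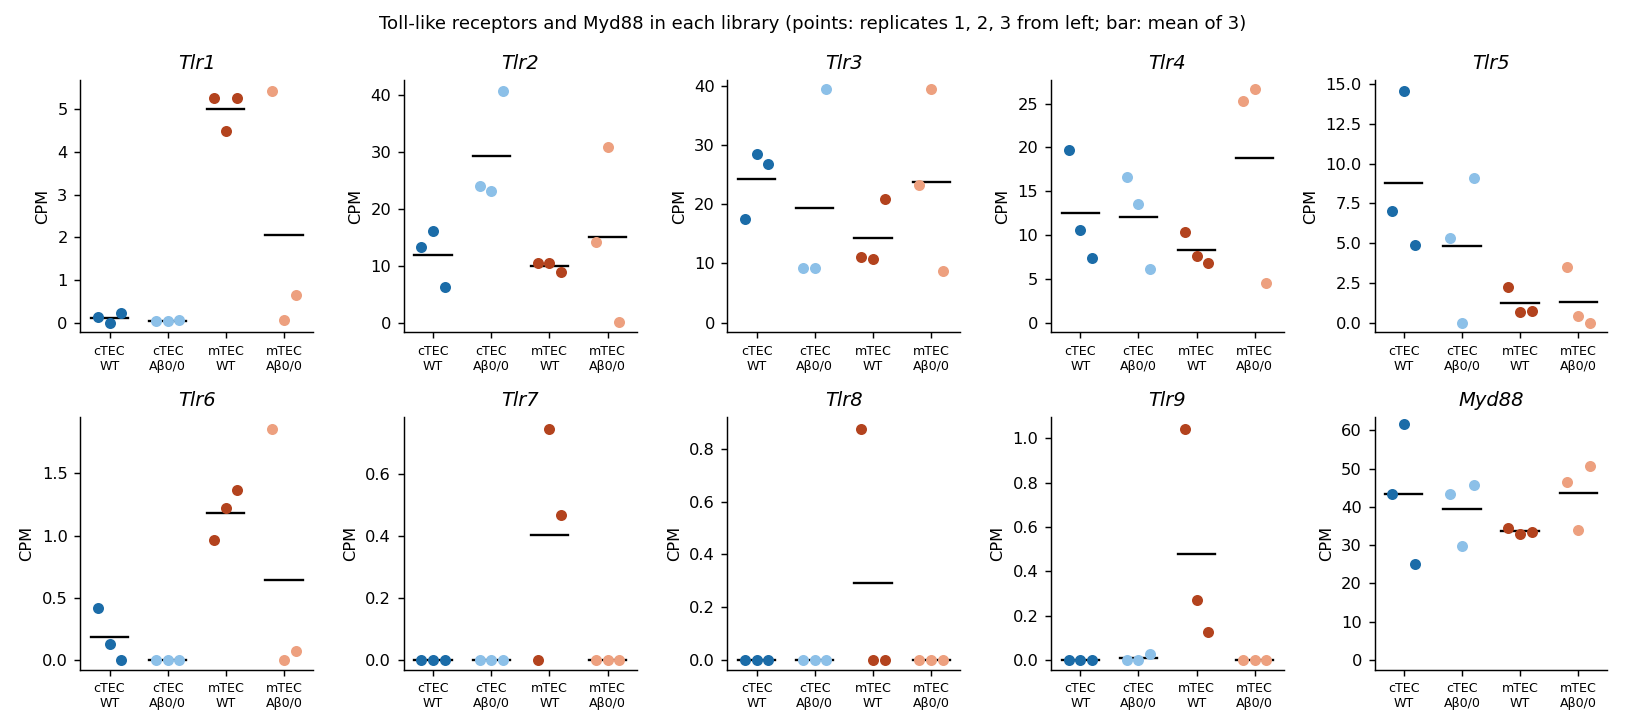
CPM of each gene in 12 libraries, with 1 panel per gene, the 4 groups on the horizontal axis, replicates 1, 2 and 3 from left to right and a bar at the mean of 3. Tlr1 and Tlr6 are raised in all WT mTEC libraries and reach that level in 1 of 3 Aβ0/0 mTEC libraries, whereas Myd88 lies between 25.0 and 61.6 CPM throughout.

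To ask which members differ between mTEC of both genotypes, WT and Aβ0/0 mTEC were compared. None of the 7 tested members was called by edgeR, against 5.66% of 18636 genes called in this comparison, and none had an unadjusted p under 0.05. DESeq2 called none either. Tlr4 (log2 fold change -1.18 ± 0.69, adjusted p = 0.524 by edgeR) and Tlr1 (1.29 ± 1.39, adjusted p = 0.776) had the largest differences. This order was not stable. With 1 library left out, Tlr4 ranged from -1.64 to -0.83, Tlr1 from 0.73 to 3.80 and Tlr6 from 0.30 to 4.85. The median over the tested members was -0.37, with 2 positive and 5 negative values, beside a median of 0.00 over all genes tested. Of the 7, Tlr1, Tlr2, Tlr5 and Tlr6 passed the filter on low counts through WT mTEC alone. The intervals were wide: that of Tlr1 ran from -1.43 to 4.01 and that of Tlr2 from -3.11 to 1.93, several fold in both directions.

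The members varied more between the libraries of Aβ0/0 mTEC than between those of WT mTEC. The median SD of log2(CPM + 1) over the 7 tested members was 1.13 in Aβ0/0 mTEC and 0.14 in WT mTEC, beside 0.52 and 0.25 over all 19461 genes. In cTEC it was 0.64 in WT and 0.44 in Aβ0/0, beside 0.42 and 0.39. Tlr1 and Tlr6 were near 0 in cTEC. Between the genotypes in mTEC, Tlr1, Tlr2, Tlr5 and Tlr6 passed the filter on low counts through WT mTEC alone. The medians are therefore given as a description. Over the 5 members tested in every comparison (Tlr2, Tlr3, Tlr4, Tlr5 and Myd88), the median was 1.13 in Aβ0/0 mTEC, 0.28 in WT mTEC, 0.66 in WT cTEC and 0.69 in Aβ0/0 cTEC, beside 0.54, 0.23, 0.47 and 0.47 over 14764 genes. Replicate 1 of Aβ0/0 mTEC had the highest Tlr1, Tlr5 and Tlr6 of its group, replicate 2 had the highest Tlr2, Tlr3 and Tlr4, and replicate 3 had the lowest Tlr2, Tlr3, Tlr4 and Tlr5 but the highest Myd88. These libraries had 24897011, 31698631 and 27318685 counts in the order of replicates 1, 2 and 3. The share of genes without a count was 8.53%, 14.7% and 15.1% in the same order. The part of this detection rate in the spread of the members was not tested.

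**Figure D3:**
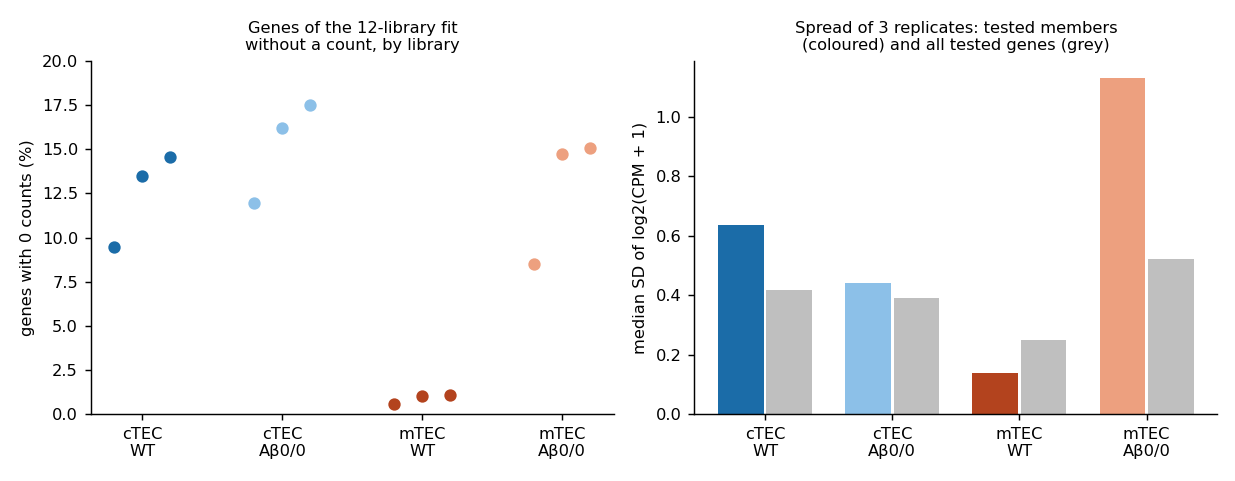
Left, the percentage of 19461 genes with 0 counts in each library by group. Right, the median SD of log2(CPM + 1) over 3 replicates for the 7 tested members (coloured bars) and for all genes (grey bars). WT mTEC is lowest in both panels, with 0.591% to 1.08% of genes at 0 and a member SD of 0.14.

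In cTEC, none of the 5 tested members was called between WT and Aβ0/0 by edgeR, against 0.0194% of 15432 genes, and DESeq2 called none. Tlr2 alone had an unadjusted p under 0.05. Tlr5 (0.90 ± 1.44, adjusted p = 1 by edgeR) and Tlr3 (0.38 ± 0.61, adjusted p = 1) had positive differences well inside their errors. Tlr1 and Tlr6 had too few counts in cTEC to be tested.

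To ask which members distinguish the medulla from the cortex, WT mTEC were compared with WT cTEC. This comparison shares the WT mTEC libraries with that of the genotypes in mTEC. By edgeR, 2 of 7 tested members were called, beside 26.8% of 18667 genes. Tlr1 was higher in mTEC, with a log2 fold change of 5.38 ± 1.18 (adjusted p = 0.0117). Tlr5 was lower in mTEC, with -2.81 ± 0.77 (adjusted p = 0.0295). For Tlr6 the difference was 2.74 ± 1.18 (adjusted p = 0.132). Tlr1 and Tlr6 passed the filter on low counts through WT mTEC alone, whereas Tlr5 passed it in both subsets. Among the tested members, 2 lay above (Tlr1, Tlr6) and 1 below (Tlr5) without overlap, and such separations made up 29.5% and 17.4% of all genes. Tlr1 fell short without WT mTEC replicate 1 (adjusted p = 0.0512 by edgeR). Tlr5 fell short without WT cTEC replicate 2 (0.0611), WT mTEC replicate 2 (0.120) or WT mTEC replicate 3 (0.119), and with the replicate number as a block (-2.89 ± 0.90, adjusted p = 0.0658). Fitted on all 12 libraries, edgeR called neither Tlr1 (adjusted p = 0.0566) nor Tlr5 (0.385), and DESeq2 called Tlr1 (0.00065) but not Tlr5 (0.279). Tlr2, Tlr3, Tlr4 and Myd88 had log2 fold changes of -0.21, -0.75, -0.56 and -0.33, none of them called.

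In Aβ0/0 mice, which provided mTEC and cTEC of their own, none of the 5 tested members was called by edgeR, against 5.6% of 15687 genes, and none had an unadjusted p under 0.05. DESeq2 called 1, Tlr1, beside 2760 of 16154 genes. Tlr1 had not been tested by edgeR here for its low counts. Tlr5 had a log2 fold change of -1.86 ± 2.28 (adjusted p = 0.746 by edgeR), of the same sign as in WT, and -4.53 to -1.06 with 1 library left out. For Tlr1, the mean of Aβ0/0 mTEC was at least 22-fold higher than the level of 3 counts in Aβ0/0 cTEC. It rested on replicate 1 and was at least 3.85-fold without it.

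A test of whether the genotype difference itself was unequal between mTEC and cTEC called none of 7 tested members, against 0.0103% of 19461 genes, by edgeR or by DESeq2, and none had an unadjusted p under 0.05. The largest difference of differences was that of Tlr6 (-4.47 ± 2.55, adjusted p = 0.824), a gene with no count in Aβ0/0 cTEC, so that its size depended on the fit. With 1 library left out, that of Tlr6 ranged from -5.06 to -0.60. For Myd88 the difference of differences was -0.49 ± 0.45 (adjusted p = 0.956).

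**Figure D4:**
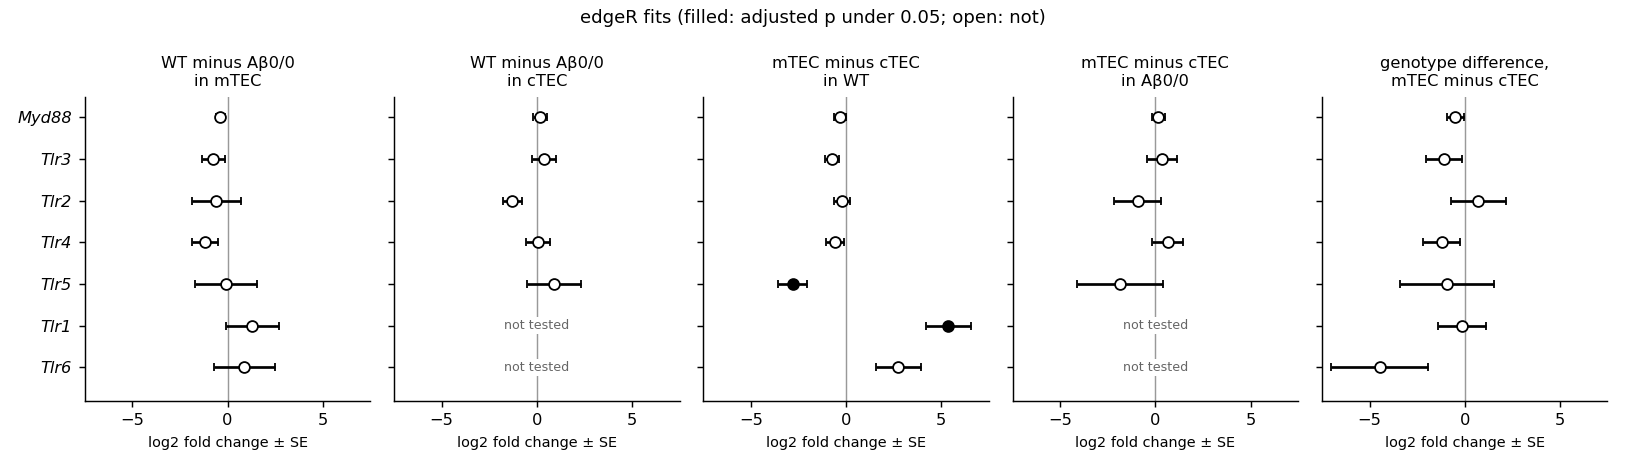
Log2 fold change with SE of the 7 tested members (vertical axis) in the 4 comparisons and, at the right, the difference of the genotype effect between mTEC and cTEC. Only Tlr1 (5.38) and Tlr5 (-2.81) in mTEC against cTEC of WT mice have filled symbols, which mark an adjusted p under 0.05.

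The remaining mouse TLRs, Tlr11, Tlr12 and Tlr13, were examined next to the members. Tlr12, a receptor for profilin of protozoa, had 197, 169 and 352 counts in WT mTEC and 94, 12 and 607 in Aβ0/0 mTEC, against 15, 2 and 44 in WT cTEC and 82, 2 and 0 in Aβ0/0 cTEC. Its log2 fold change of mTEC over cTEC was 3.34 in WT and 3.22 in Aβ0/0, and edgeR called neither. Tlr13, which senses bacterial ribosomal RNA, had 5 to 27 counts in WT mTEC and at most 2 elsewhere. Tlr11 had 48 counts in Aβ0/0 mTEC replicate 1 and at most 2 in any other library.

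Around the receptors, 82 further genes of the pathway in 5 lists were tested in the same fits. Between WT mTEC and WT cTEC, 32 of 83 tested genes, Tlr12 included, were called by edgeR, with 28 higher and 4 lower in mTEC, beside 18% and 8.81% of all genes called in these directions. The largest share was among the target genes of TLR signalling, of which 16 of 23 were higher in mTEC and none was lower. However, 11 of the 23, with 7 of the 16 calls, passed the filter on low counts through WT mTEC alone, so that the number of calls and the median log2 fold change of 3.79 (0.06 over all genes) are given as a description. Of the 12 that passed in both subsets, 9 were called. The 6 called targets with the largest fitted differences were Il12b, Acod1 (itaconate synthesis), Ccl3, Il6, Ifnb1 and Il1b, and since their counts in WT cTEC were at or near 0, the fitted sizes give no order among them. Acod1 had 120, 118 and 68 counts in WT mTEC and none in WT cTEC, which made it at least 31.9-fold higher. Il12b, the shared subunit of interleukins 12 and 23, had 106, 122 and 152 counts against 1, 0 and 0, at least 38.3-fold higher. For Ccl3, Il6, Ifnb1 and Il1b the bounds were 25.8-fold, 17.8-fold, 16.2-fold and 14.0-fold. Those of Il6 and Il1b fell to 8.14-fold and 7.2-fold without WT mTEC replicate 1, and that of Ifnb1 to 5.89-fold without WT mTEC replicate 3. These genes are known products of macrophages and dendritic cells as much as of epithelium, and markers of immune cells moved in the same comparison. Between WT mTEC and WT cTEC, edgeR called 4 of 8 macrophage markers, 5 of 8 dendritic cell markers, 2 of 8 plasmacytoid dendritic cell markers, 3 of 8 B cell markers and 2 of 8 granulocyte markers higher in mTEC, and 0, 1, 2, 1 and 0 lower. The shares over all genes were 18% and 8.81%. Several markers had few counts in WT cTEC, among them C1qa (0 to 15), Cd209a (0 to 1) and Itgax (0). The filter on low counts was not split for markers, so these numbers are a description. The part of immune cells in the levels of the targets and of Btk was not tested.

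Of the 15 co-receptor and trafficking genes, Ctss, Unc93b1 and Cd14 were higher and Ctsl was lower in WT mTEC than in WT cTEC. These were 26.7% of the list, beside 26.8% of all genes called in this comparison. Unc93b1, the chaperone of the endosomal receptors, had 93.3, 100.4 and 99.1 CPM in WT mTEC and 31.1, 27.3 and 23.2 CPM in WT cTEC, a log2 fold change of 1.87 ± 0.20 (edgeR, adjusted p = 0.000835). The same difference was 1.90 ± 0.35 in Aβ0/0 (adjusted p = 0.0243). Cathepsins S and L, which cut the endosomal receptors into their active form and are the proteases of antigen processing in mTEC and cTEC, went in opposite directions. Ctss was higher in mTEC by 4.17 ± 0.34 in WT and 3.45 ± 0.45 in Aβ0/0, and Ctsl fell by 2.04 in WT and 1.79 in Aβ0/0 on the log2 scale, with adjusted p values from edgeR of 0.000354, 0.00767, 0.00432 and 0.0446. Ctsl also served as a cTEC marker here. Cd14, the co-receptor of TLR4, was higher in WT mTEC by 0.83 ± 0.25 (adjusted p = 0.0450 by edgeR).

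Of the 28 kinases and transcription factors, 7 were higher and 2 lower in WT mTEC, beside 18% and 8.81% of all genes. Btk, a kinase of B and myeloid cells, was at least 12.4-fold higher, with 25, 70 and 32 counts against none, and was the 1 gene of this list that passed the filter on low counts through WT mTEC alone. Irf5 rose by 3.93 ± 0.31, from 5.01 ± 1.5 CPM (SD, n = 3) to 75.5 ± 11 CPM (edgeR, adjusted p = 0.000318). Nfkb2, Nfkbia, Relb and Map3k8, which belong to or control the NF-κB pathways, rose by 1.99, 1.96, 1.88 and 1.27 on the log2 scale. Nfkb1 fell by 1.67 and Tab1 fell by 1.02 on that scale. The alternative NF-κB subunits Nfkb2 and Relb are known to act downstream of RANK in mTEC, and the classical subunit Nfkb1 was the one that was lower. Of the 10 adaptors and brakes, Socs1 was higher (0.94 ± 0.25) and Tirap, the bridging adaptor of TLR2 and TLR4, was lower (-1.33 ± 0.31, adjusted p = 0.0151 by edgeR). These were 20% of the list, beside 26.8% of all genes called in this comparison. Tirap had 11.7, 19.5 and 19.4 CPM in WT mTEC and 33.4, 56.1 and 40.0 CPM in WT cTEC. Of 6 interleukin receptor genes that share Myd88, Il18r1 was higher (2.60 ± 0.41), which is 16.7% beside the same 26.8%.

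In Aβ0/0 mice, 13 of 72 tested pathway genes were called between mTEC and cTEC by edgeR, 11 higher and 2 lower beside 3.45% and 2.15% of all genes, and 8 with the replicate number as a block. These were Irak3, Unc93b1, Ctss, Nfkbia, Nfkb2, Irf7, Nos2, Il23a, Ccl20, Ptgs2 and Ccl5, which were higher in mTEC, and Ctsl and Nfkb1, which were lower. Leaving out any 1 of the 6 libraries left 2 to 4 calls. Ccl20, a chemokine for CCR6-bearing cells, had 518, 205 and 134 CPM in Aβ0/0 mTEC against 0, 5.95 and 0.505 CPM in Aβ0/0 cTEC. Il23a had 47.7, 82.8 and 29.2 CPM against 0.663, 2.41 and 5.19 CPM. Of the 16 targets tested, 5 were called, 3 of which passed the filter on low counts through mTEC alone.

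Between WT and Aβ0/0 mTEC, 4 of 83 tested pathway genes were called by edgeR, which is 4.82% beside 5.66% of all genes. All 4 were higher in WT, as were 5.32% of all genes. Of these, Il12b, Acod1 and Btk passed the filter on low counts through WT mTEC alone, so these 3 calls and their direction are given as a description. DESeq2 on the same libraries called 16 of 85 pathway genes, 12 higher and 4 lower in WT. Over all genes DESeq2 called 2440 of 21997, of which 1898 were higher in WT. Il12a, the subunit of interleukin 12, had 39.9, 54.0 and 35.1 CPM in WT mTEC and 4.98, 5.02 and 7.27 CPM in Aβ0/0 mTEC, a log2 fold change of 2.90 ± 0.34 (adjusted p = 0.0352). Il12b, Acod1 and Btk had no count in any Aβ0/0 mTEC library and were at least 38-fold, 31.6-fold and 12.3-fold higher in WT. With the replicate number as a block, none of the 4 pathway genes was called, nor was any of the 1054 genes called over all genes. The 4 calls also depended on single libraries: none was left without WT replicate 1, 2 or 3 or without Aβ0/0 replicate 3, 1 was left without Aβ0/0 replicate 2, and all 4 plus 5 others were called without Aβ0/0 replicate 1. Between WT and Aβ0/0 cTEC, none of 72 tested pathway genes was called by edgeR and none had an unadjusted p under 0.05. The smallest p values were those of Ccl5, Nos2 and Ptgs2 (unadjusted p = 0.0519, 0.0524 and 0.0608). For the difference of differences, none of 83 was called by edgeR and 1, Il12b, by DESeq2, which called 398 of 19429 genes over all.

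**Figure D5:**
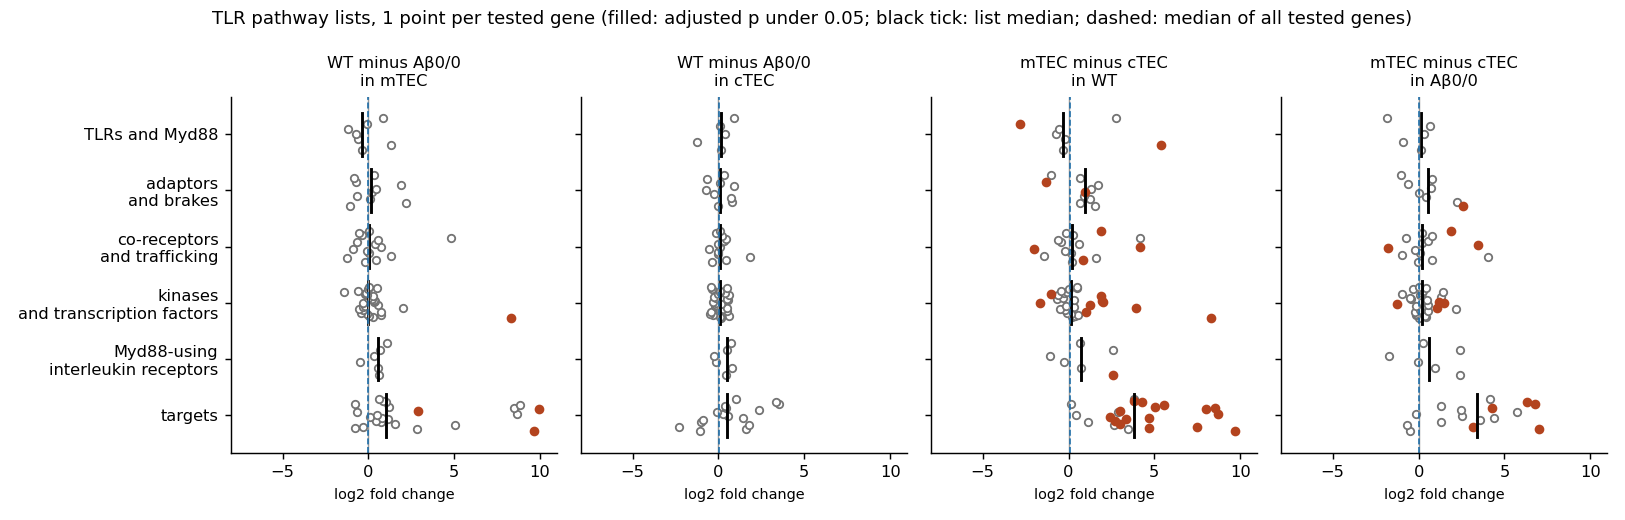
Log2 fold change of every tested gene (points) in the TLR and Myd88 group and in 5 pathway lists (vertical axis), in 4 comparisons, with a black tick at the list median and a dashed line at the median of all genes. Filled points have an adjusted p under 0.05, and 16 of 23 targets are filled in mTEC against cTEC of WT mice. Points of genes without counts in a group are fitted values and no bounds.

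Markers of other cells were given the same treatment, because TLRs and their targets are abundant in myeloid cells and because the gate on CD45 should remove such cells. In a bulk library, fewer cells of a type and less RNA per cell cannot be told apart. The sum over 8 macrophage markers was 605 to 663 CPM in WT mTEC, 116 to 667 CPM in Aβ0/0 mTEC, 68.0 to 290.2 CPM in WT cTEC and 8.66 to 47.7 CPM in Aβ0/0 cTEC. Most of it was Lyz2, with means of 572, 295, 130 and 24.5 CPM in the same order. Of the other markers, Adgre1 (F4/80) had 375 to 690 counts in the WT mTEC libraries, none in the Aβ0/0 libraries of either subset and 0 to 94 in WT cTEC, and Fcgr1 was at 0 in all 12 libraries. Csf1r had 201 to 417 counts in WT mTEC and 0 to 561 in Aβ0/0 mTEC. Over 8 granulocyte markers, the sum was 541 to 693 CPM in WT mTEC and 78.8 to 304.9 CPM in Aβ0/0 mTEC, and Ngp had 289 to 670 counts in WT mTEC and none in Aβ0/0 mTEC.

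The sum over 8 dendritic cell markers was 76.2 to 97.2 CPM in WT mTEC and 54.4 to 98.9 CPM in Aβ0/0 mTEC, which overlapped. Cd209a, Itgax and Clec9a were at 0 in all Aβ0/0 mTEC libraries, and Clec9a had only 0 to 12 counts in WT mTEC. Ccr7 (26 CPM in WT and 7.72 CPM in Aβ0/0), Flt3 (4.56 and 1.04 CPM) and Xcr1 (2.5 and 0.736 CPM) also had the higher mean in WT mTEC, whereas Zbtb46 (27.4 and 33 CPM) and Sirpa (22.5 and 31.2 CPM) had it in Aβ0/0 mTEC. By edgeR, 2 of the 8 were called between the genotypes in mTEC, both higher in WT, beside 5.32% of all genes. Over 8 markers of plasmacytoid dendritic cells, which are rich in Tlr7 and Tlr9, the sum was 1055 to 1291 CPM in WT mTEC and 759 to 1605 CPM in Aβ0/0 mTEC, which overlapped. Siglech had 44 to 101 and 13 to 39 counts. Irf8 (233 and 98.0 CPM), Cox6a2 (4.59 and 2.04 CPM), Ly6d (477 and 371 CPM) and Ccr9 (18.1 and 13.5 CPM) also had the higher mean in WT mTEC, and Bst2 (212 and 251 CPM), Tcf4 (110 and 179 CPM) and Klk1 (128 and 294 CPM) had it in Aβ0/0 mTEC. By edgeR, 1 of the 8 was called between the genotypes in mTEC, higher in WT, beside the same 5.32%. Of the macrophage, granulocyte and B cell markers, 1, 2 and 0 of 8 were called there, all higher in WT. Over 8 B cell markers the sum was 111 to 159 CPM in WT mTEC and 84.3 to 89.2 CPM in Aβ0/0 mTEC. Tlr9, Btk, Il12b, Acod1 and Il1b had counts in all WT mTEC libraries and in no Aβ0/0 mTEC library, and so did the markers Adgre1, Ngp and Cd209a, which were picked after their values were seen. The share of all genes with this pattern was not counted. Of 19461 genes, 0.591% to 1.08% had no count in a WT mTEC library, against 8.53% to 15.1% in an Aβ0/0 mTEC library. Other markers of the same lists had counts in all 3 Aβ0/0 mTEC libraries, among them Lyz2 (2911 to 16463), Cd68 (151 to 198), S100a8 (825 to 2424) and Ltf (568 to 6344). The part of these cells in the levels of the genes was not tested. Thymocyte markers had higher sums in cTEC, with a sum over 10 genes of 319 to 585 CPM in WT cTEC and 667 to 953 CPM in Aβ0/0 cTEC against 53.3 to 182.1 CPM in mTEC. Tlr2, the member whose genotypes did not overlap in cTEC, and the thymocyte sum were both higher in Aβ0/0 cTEC than in WT cTEC. Of the 10 markers, 4 were so without overlap, beside 3.58% of all genes tested, and none was called by edgeR. Between the WT subsets, mean Tlr2 was 11.9 CPM in cTEC and 9.95 CPM in mTEC, while the thymocyte sum in WT mTEC was 85.0 to 182.1 CPM. The part of thymocytes in the difference of Tlr2 was not tested. Fibroblast markers (8 genes) also had higher sums in cTEC, at 2429 to 3288 CPM against 244 to 573 CPM in mTEC. Most of that sum was Dcn, with a mean of 2410 CPM in WT cTEC and 2464 CPM in Aβ0/0 cTEC. Of the 8 markers, 4 were lower in WT mTEC than in WT cTEC without overlap, beside 17.4% of all genes tested. Col1a1 had a mean of 27.8 CPM in WT cTEC and 34.8 CPM in WT mTEC, and Pdgfrb 10 and 15.2 CPM. The sum over 8 endothelial markers was higher in WT than in Aβ0/0 without overlap in both subsets, at 55.6 to 91.8 CPM against 21.3 to 36.6 CPM in mTEC and 68.6 to 151.9 CPM against 30.5 to 56.8 CPM in cTEC. Their part in the differences between genotypes was not tested. Tlr5 and Tirap were higher in WT cTEC than in WT mTEC, as were the thymocyte sum and Dcn. Between WT and Aβ0/0 cTEC, the thymocyte sum was higher in Aβ0/0. Mean Tlr5 was 8.81 CPM in WT cTEC and 4.81 CPM in Aβ0/0 cTEC, and mean Tirap was 43.2 and 41.9 CPM. The part of these lists in the levels of Tlr5 and Tirap was not tested.

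The genes whose rlog values followed a member most closely over the 12 libraries were sought among 18972 genes for Myd88 and for Tlr3 and Tlr2, the receptors with the highest mean TPM. The measure was the root mean square difference of rlog values after subtraction of each gene's mean, and it describes this set of libraries only. For Myd88 these were Ubxn2a (0.13), Afg3l2 (0.14) and Thsd1 (0.14), for Tlr3 they included Ccdc112 (0.27) and Ttbk2 (0.28), and for Tlr2 they were Sh3kbp1 (0.33), Minpp1 (0.35) and Cd6 (0.41), a surface protein of T cells. The members' own root mean square deviations were 0.27, 0.52 and 1.00.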

How the data were processed

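RNA of sorted cTEC and mTEC was converted with a SMART-Seq v4 kit. Per the submitters' processing notes, bcl2fastq 2.20.0, Trim Galore, kallisto 0.43, DESeq2 and mm10 were used. The deposited estimated counts and TPM are kallisto values per transcript, and the deposited log2 values are rlog values that the authors made with DESeq2. Of 109282 transcripts, 107987 matched GENCODE M21 (GRCm38), and 1295, with 0.45% to 0.512% of the counts, were left out. Estimated counts were summed per gene and rounded.

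Each comparison used its 6 libraries, and the difference of differences all 12, with TMM, filterByExpr and the robust quasi-likelihood test of edgeR 4.0.16 (R 4.3.3). The Benjamini-Hochberg threshold was 0.05 over all genes. The 95% intervals used the SE with the normal quantile, so they are narrower than the quasi-likelihood test would give. For Tlr3 between WT mTEC and WT cTEC, the interval was -1.49 to -0.01 at an unadjusted p of 0.0822 by that test. DESeq2 1.42.0, RLE factors, other filters, all 12 libraries, a replicate block and leaving out each library were alternatives.

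The study lists the sorting yields of both subsets and both genotypes under each replicate number. Equal numbers within a genotype were therefore taken as 1 pool, which the labels do not state, and a number may also mark a sorting shared by both genotypes. Deviations from group means correlated between subsets at 0.28, 0.02 and 0.13 in WT and 0.28, 0.14 and 0.04 in Aβ0/0 (replicates 1 to 3), and between genotypes at 0.32, 0.14 and 0.07 in mTEC and 0.30, -0.10 and 0.02 in cTEC, so they do not tell a pool from a number. A floor of 3 counts served as lower limit for a group without counts.

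Members and lists were chosen with earlier results of these data known. The 10 members were always named, and of each list the called genes, at most 6 per direction by size, or up to 3 with the smallest p. Any other gene was picked after its values were seen. A gene among those closest to Tlr3 is not reported here.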

Additional observations from a re-analysis of the deposited data

How the results depend on the processing

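Between mTEC and cTEC of WT mice, the 2 calls (Tlr1 and Tlr5) became 1 with the replicate block (Tlr1), 1 with DESeq2 on all 12 libraries (Tlr1) and 0 with edgeR on all 12 libraries. In edgeR on all 12 libraries, Tlr1 had a log2 fold change of 5.36 (adjusted p = 0.0566). Tlr9 was a further call with DESeq2 on the same libraries and without a filter on low counts. Leaving out 1 library left 1 to 2 calls. Between mTEC and cTEC of Aβ0/0 mice, DESeq2 on the same libraries called 1 member (Tlr1) and DESeq2 on all 12 libraries 2 (Tlr1 and Tlr6), against 0 with edgeR. The causes were not tested. In the other 3 comparisons no alternative called a member tested in edgeR, and the block changed no other call of a member.

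The block turned the sign of uncalled differences: in mTEC, WT over Aβ0/0, Tlr2 became 0.52 and Tlr5 1.38, and the difference of differences of Tlr1 became 1.92. With 1 library left out, the sign of 9 values was not stable. WT over Aβ0/0 ranged from -1.17 to 0.48 for Tlr2 and -0.89 to 2.51 for Tlr5 in mTEC, and from -0.41 to 0.37 for Tlr4 and -0.21 to 0.41 for Myd88 in cTEC. Between mTEC and cTEC, Tlr2 ranged from -0.51 to 0.0180 in WT, and Tlr3 from -0.27 to 1.32 and Myd88 from -0.0177 to 0.29 in Aβ0/0. The difference of differences ranged from -0.70 to 2.40 for Tlr1 and -1.78 to 1.69 for Tlr5. The alternatives to single members counted 405 with the same call and sign, 8 that lost a call and 20 that turned sign.

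Over all genes, the calls between genotypes in mTEC went from 1054 to 2440 with DESeq2 on the same libraries, 27 without a filter, 11 with a mean of at least 10 counts, 20 with edgeR on all 12 libraries and 0 with the block. The 4 pathway genes called there became 16, 1, 0, 0 and 0. Of the 32 pathway genes called between mTEC and cTEC of WT mice, 26 were called with the block, 24 with edgeR on all 12 libraries and 22 to 32 without 1 library. The group with the highest mean was the same in TPM as in CPM for 8 of 10 members (not Tlr3 and Myd88) and in rlog values for 9 of 10 (not Tlr3).

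Tlr7, Tlr8 and Tlr9 did not pass the filter on low counts in any of the 5 comparisons, and Tlr1 and Tlr6 did not in 2 of them. The part of depth in this was not tested: WT mTEC replicate 1 had the fewest counts of the 12 libraries (21710319) and the most counts of Tlr9 and Tlr8 (25 and 21).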
